A study of Homo sapiens with 18 samples.

Results

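The comparison described here set SW620 cells that had been heat shocked and left to recover against SW620 cells that were never heated, both after transfection with a scramble siRNA. SW620 is a human colon cancer line, so the values describe 1 line. The Ctrl cells were kept at 37 °C. For HS+REC, 1 h of heat at 42 °C was followed by recovery at 37 °C, which the sample labels give as 1 h. Each group had 3 libraries, described in the methods as independent biological replicates, so the comparison used 6 of the 18 libraries of the study. Its members were the genes with more than 1 CPM (counts per 1000000 counts of the library) in at least 3 of these 6 libraries, which were 12475 of the 26485 genes in the table. The CPM given below for single genes use library totals scaled by TMM, which evens out composition between libraries, whereas the filter and the sums of markers use plain totals. At the edge of this filter, the third highest CPM was 1.004 in TEX40 and LOC101929567, just inside, and 0.999991 in STAC3, CRYM and PNMAL1, just outside. A further group, HS, was taken at the end of the heat, after 1 h at 42 °C. The same 3 conditions were also made with an siRNA against Lonp1 (siLonp1). The comparison answers which transcripts differed from unheated cells 1 h after the heat ended, whether they changed during the heat or after it.

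Heat unfolds proteins, and cells answer by making chaperones, which bind unfolded proteins and help them refold or pass them on for degradation. In human cells the heat shock response is driven mainly by HSF1, a transcription factor that chaperones hold inactive at rest. On heating HSF1 forms trimers and binds heat shock elements, which are short inverted repeats of GAA in the promoters of its targets. When unfolded proteins have been dealt with, chaperones bind HSF1 again and the response is shut down.

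The 6 libraries held between 39154783 and 47279297 counts, and the genes tested held 99.9% of them. The log2 CPM of all genes tested differed between a Ctrl and an HS+REC library by 0.55 (root mean square, median of the library pairs), against 0.15 between Ctrl libraries and 0.22 between HS+REC libraries. The HS+REC libraries therefore varied more among themselves than the Ctrl libraries did. LONP1, the target of the siRNA of the other arm, was at 220.2, 224 and 212 CPM in the Ctrl libraries and at 224, 196 and 235 CPM in the HS+REC libraries. It had a log2 fold change of -0.0038 with an FDR of 0.972. RPS18, a ribosomal protein gene, had 1212, 1584 and 1369 CPM in Ctrl and 1121, 1298 and 1518 CPM in HS+REC, a log2 fold change of -0.08 (FDR = 0.596). Of 16 markers of colon epithelium, 12 were above 1 CPM in every library of both groups, with sums of 9858 to 10308 CPM in Ctrl and 8771 to 10174 CPM in HS+REC, while CDX1 had no count. Of 9 leukocyte markers 2, CD68 and LYZ, were above 1 CPM in every library, and the lists summed to 21.0 to 22.3 CPM in Ctrl and 19.6 to 21.1 CPM in HS+REC. Of 10 fibroblast and endothelial markers 3 were, with sums of 44.7 to 51.2 CPM in Ctrl and 62.1 to 63.4 CPM in HS+REC. COL1A1, a collagen gene among them, was at 9.79, 7.95 and 9.63 CPM in Ctrl and 30.1, 29.2 and 31.01 CPM in HS+REC, whereas COL3A1 and KDR had no count. The part of these markers in the results was not tested.

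Transcripts were raised far more often, and by more, than they were lowered. In edgeR's quasi-likelihood test with Benjamini-Hochberg adjustment, 440 genes rose more than 2-fold with an FDR not above 0.05, which was 3.53% of the genes tested. On the same rule 81 genes were lowered (0.649%), so 521 genes, or 4.18%, changed either way. Scaling by library size only gave 381 raised and 122 lowered genes, and leaving out the filter on low counts gave 872 and 141. At the FDR alone the difference between the directions was much smaller, with 2825 genes raised (22.6%) and 2460 lowered (19.7%). Above 1.5-fold there were 954 raised and 441 lowered genes. Above 4-fold there were 114 raised genes and 0 lowered ones in the edgeR fit (0 also at an unadjusted p under 0.05), and DESeq2 gave 112 and 1, the 1 being PDGFA. Of the raised genes, 53 passed 8-fold and 34 passed 16-fold. The median log2 fold change of all genes tested was 0.01. Of the 440 raised genes, 439 had every HS+REC library above every Ctrl library. All 81 lowered genes had every HS+REC library below every Ctrl library. The genes were called on a contrast of these same libraries, so this lack of overlap is no separate evidence. Over all genes tested, 27.4% had HS+REC above Ctrl without overlap and 24.8% had it below. The filter let in 95 of the raised genes through their HS+REC libraries alone, since no Ctrl library held more than 1 CPM, and 321 of the 440 were above 1 CPM in all 6 libraries. Levels here are shares of a library's RNA, and fewer cells with a transcript cannot be told apart from less of it per cell.

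**Figure D1:**
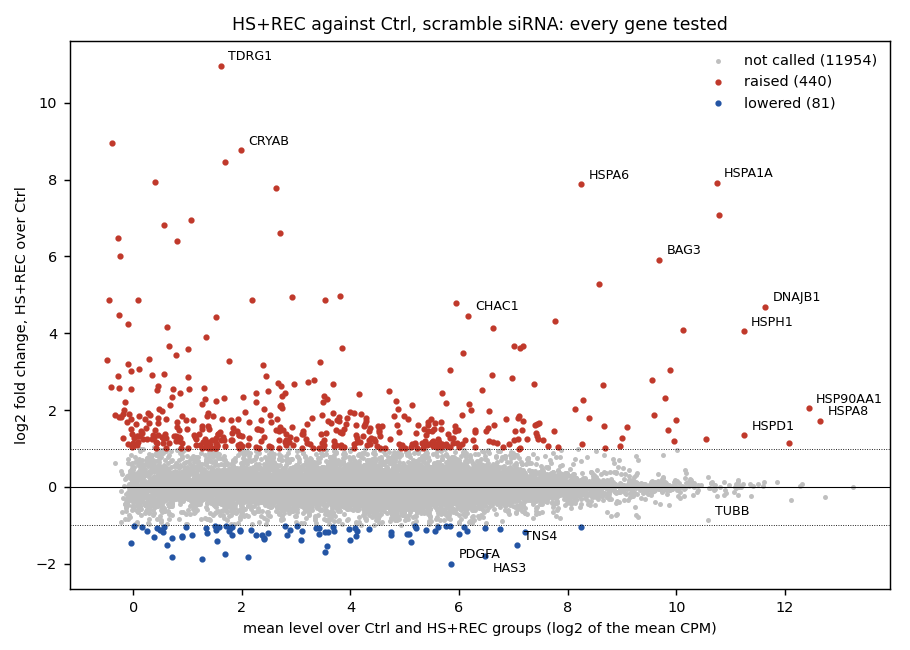
Each point is 1 of the 12475 genes tested, with the log2 of its mean CPM over the Ctrl and HS+REC groups on the x axis and its log2 fold change, HS+REC over Ctrl in scramble, on the y axis. The dotted lines mark a 2-fold change. The 81 lowered genes (blue) end at -1.99 for PDGFA, while the 440 raised genes (red) reach 7.91 for HSPA1A, and the higher points of TDRG1, CRYAB and CCL26 rest on at most 2 counts in any Ctrl library and have a height that depends on the prior count.

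The heat shock element was looked for in the promoters of the chaperone genes. A window of 250 bases before to 50 after the transcript start (RefSeq, GRCh38.p14) was searched on both strands for the element of 3 units, which reads GAA, any 2 bases, TTC, any 2 bases and GAA, or its reverse complement, which starts and ends with TTC. Of the genes tested, 10070 (80.7%) matched at least 1 window, and 46 of these (0.457%) held the element. Of the 35116 windows of the table, 172 (0.490%) held it. Of the 31 raised members of 6 lists of chaperones and their partners, 27 had a window and 8 of these (29.6%) held it, namely HSPA6, HSPA8, HSP90AA1, HSP90AB1, CHORDC1, DNAJA1, DNAJB6 and HSPD1. Of the 65 members of the same lists that were not raised 2-fold, 57 had a window and 0 held it. The same count over all raised or all lowered genes was void, because only 73.9% and 76.5% of them had a window. These counts are descriptions with no test, a match does not show that HSF1 was bound, and a missing match says only that these letters are not in the window. The sequences of 5 of the 8 are shown because they carry the element that these raised genes share. They are written from 5′ to 3′ on the gene's strand with up to 40 bases on each side, and the element is in capitals. In CHORDC1 the capitals hold 3 overlapping matches, from 60 to 38 bases before the start, and in HSPA8 there are 2 separate matches, the farther one beginning 230 bases before the start. The positions are chr1:161524426-161524518 on the plus strand for HSPA6, chr11:90223050-90223149 on the minus strand for CHORDC1, chr14:102087080-102087172 on the minus strand for HSP90AA1, chr7:157336833-157336925 on the plus strand for DNAJB6 and chr11:123062139-123062386 on the minus strand for HSPA8.
HSPA6: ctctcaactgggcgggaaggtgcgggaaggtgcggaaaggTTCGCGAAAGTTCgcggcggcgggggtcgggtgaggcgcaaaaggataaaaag
CHORDC1: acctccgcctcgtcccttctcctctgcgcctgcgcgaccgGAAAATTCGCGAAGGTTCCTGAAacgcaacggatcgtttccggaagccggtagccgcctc
HSP90AA1: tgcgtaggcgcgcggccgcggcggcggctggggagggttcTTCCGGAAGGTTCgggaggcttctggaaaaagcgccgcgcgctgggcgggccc
DNAJB6: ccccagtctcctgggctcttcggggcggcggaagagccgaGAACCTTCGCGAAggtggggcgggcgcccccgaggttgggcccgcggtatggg
HSPA8: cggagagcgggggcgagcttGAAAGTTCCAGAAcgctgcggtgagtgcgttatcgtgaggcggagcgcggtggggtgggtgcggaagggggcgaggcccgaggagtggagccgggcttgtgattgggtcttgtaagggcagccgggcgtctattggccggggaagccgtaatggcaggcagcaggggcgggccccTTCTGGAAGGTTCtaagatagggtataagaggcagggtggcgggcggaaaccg

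Of the 15 largest rises named by rule, 8 were members of the 6 lists of chaperones and their partners. Over the 6 lists together, 96 of 105 members were tested and 31 were raised 2-fold (32.3%, against 3.53% of all genes tested), with 0 lowered 2-fold. DESeq2 likewise gave 31 and 0, and with more than 1 CPM required in all 6 libraries 27 were raised. Where a list is described, its counts stand against these shares of all genes tested: 3.53% raised and 0.649% lowered 2-fold, and 22.6% raised and 19.7% lowered at the FDR. At the FDR alone 55 were raised and 9 lowered in the edgeR fit (58 and 10 at an unadjusted p under 0.05), and the median log2 fold change of the 96 was 0.25.

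The HSP70 proteins are the chaperones that grip unfolded stretches of protein, and HSPH1 (HSP110) helps them release their nucleotide. Of 16 tested members, 9 were raised 2-fold (7 with more than 1 CPM required in all 6 libraries), 14 were raised at the FDR, and the median log2 fold change was 1.64. HSPA1A, the main inducible HSP70 (chr6:31815543-31817946, hg38), was at 13.6, 13.6 and 15.2 CPM in the Ctrl libraries and at 3257, 3187 and 3787 CPM in the HS+REC libraries. The fitted fold change was 241, or 7.91 on the log2 scale (SE 0.12, FDR = 2.2e-22), the largest among genes with more than 3 counts in every Ctrl library and at least 5 CPM in HS+REC. HSPA1B, its neighbour with a near-identical sequence (chr6:31827738-31830254), was at 26.3, 25.5 and 26.5 CPM in Ctrl and 3079, 3515 and 3944 CPM in HS+REC (log2 fold change 7.07, SE 0.14, FDR = 2.1e-20). The split of reads between these copies is uncertain, as is that of HSPA1L, which lies beside HSPA1A on the opposite strand, passed the filter only through HS+REC and went from 0.863 ± 0.0589 to 27.3 ± 2.69 CPM (SD, n = 3), since the strand setting of the counting was not stated. HSPA6, a strictly inducible HSP70 (chr1:161524540-161526894), was at 2.19, 2.22 and 3.35 CPM in Ctrl and at 448, 625 and 750.0 CPM in HS+REC (log2 fold change 7.88, SE 0.27, FDR = 1.8e-16). Its HS+REC libraries were spread over a wider range than those of HSPA1A, yet all stood far above Ctrl. HSPA7, a near copy of HSPA6, had 0, 1 and 3 counts in Ctrl and 3.33, 4.38 and 4.76 CPM in HS+REC.

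Members that are abundant at rest rose as well. HSPA8, the constitutive HSP70, was at 3034, 3014 and 2894 CPM in Ctrl and 8794, 10495 and 10321 CPM in HS+REC (log2 fold change 1.73, SE 0.08, FDR = 2.1e-14). HSPH1 was at 279.9, 265 and 282 CPM in Ctrl and 4111, 5019 and 4600.3 CPM in HS+REC (log2 fold change 4.05, SE 0.09, FDR = 7.0e-20). The related HSPA4L and HSPA4 rose with log2 fold changes of 2.92 and 1.56. HSP70 proteins of other compartments moved little: HSPA5 of the endoplasmic reticulum (ER) had a log2 fold change of 0.14, mitochondrial HSPA9 of 0.22, and HYOU1, the HSP110 of the ER, of -0.10 with an FDR of 0.166.

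HSP90 proteins finish the folding of kinases and receptors with the help of cochaperones. Of 18 tested members of this list, 7 were raised 2-fold, 11 were raised and 2 lowered at the FDR, and the median log2 fold change was 0.51. HSP90AA1, the inducible HSP90, was at 2184, 2145 and 2155 CPM in Ctrl and 8111, 9743 and 9115 CPM in HS+REC (log2 fold change 2.06, SE 0.08, FDR = 1.4e-15), and the constitutive HSP90AB1 had a log2 fold change of 1.14. FKBP4, a prolyl isomerase that joins HSP90 to steroid receptors, was at 202, 203 and 201 CPM in Ctrl and 1466, 1729.7 and 1839.9 CPM in HS+REC (log2 fold change 3.06, SE 0.08, FDR = 2.5e-18). CHORDC1, an HSP90 partner, was at 109, 103 and 108 CPM in Ctrl and 484, 573 and 481 CPM in HS+REC (log2 fold change 2.26, SE 0.08, FDR = 1.6e-16). The groups did not overlap in any of these genes. CACYBP, STIP1 and AHSA1, the last an activator of HSP90's ATPase, rose with log2 fold changes of 1.80, 1.47 and 1.59. The ER and mitochondrial forms, HSP90B1 and TRAP1, had log2 fold changes of 0.13 and 0.06, with FDRs of 0.0607 and 0.472. FNIP1, a cochaperone that slows HSP90, fell by 0.78 on the log2 scale (FDR = 7.1e-07).

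Small heat shock proteins hold unfolded proteins in solution. Of 10 listed, 4 were tested. HSPB1 alone was raised 2-fold with more than 1 CPM in all 6 libraries, since CRYAB and HSPB8 entered the test only through their HS+REC libraries. HSPB1 was at 185, 192 and 189 CPM in Ctrl and 1094, 1178 and 1647 CPM in HS+REC (log2 fold change 2.79, SE 0.14, FDR = 1.3e-13). CRYAB had 0, 2 and 0 counts in the Ctrl libraries and 6.09, 8.37 and 9.35 CPM in HS+REC. HSPB8, the BAG3 partner, had 1, 1 and 0 counts in Ctrl and 1.57, 1.74 and 1.55 CPM in HS+REC. No fold is given for these pairs because the Ctrl level rests on almost no reads.

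J-domain proteins hand substrates to HSP70 and start its ATPase. Of 38 tested members, 8 were raised 2-fold, 13 were raised and 5 lowered at the FDR, and the median log2 fold change was 0.07. DNAJB1, the main partner of HSPA1A, was at 239, 245 and 225 CPM in Ctrl and 5198, 6439 and 6739 CPM in HS+REC (log2 fold change 4.69, SE 0.13, FDR = 2.7e-18). DNAJA4 was at 19.1, 19.5 and 19.04 CPM in Ctrl and 673, 796 and 756 CPM in HS+REC (log2 fold change 5.27, SE 0.08, FDR = 2.2e-22). DNAJB4, DNAJA1 and DNAJB6 rose by 4.79, 2.31 and 2.04 on the log2 scale. BAG3, the nucleotide exchange factor that sends HSP70 clients to autophagy, was at 27.6, 26.5 and 26.6 CPM in Ctrl and 1502, 1595 and 1781 CPM in HS+REC (log2 fold change 5.92, SE 0.11, FDR = 4.5e-21). It was the 1 member raised 2-fold among 10 tested BAG and other HSP70 exchange or tagging factors, of which 5 were raised and 2 lowered at the FDR.

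Chaperonins are ring-shaped chambers that enclose a protein while it folds. Of 10 tested members, 3 were raised 2-fold and 9 at the FDR, and the median log2 fold change was 0.39. HSPD1 and HSPE1, the mitochondrial chaperonin and its lid, lie head to head on chromosome 2. HSPD1 was at 1400.5, 1349 and 1391 CPM in Ctrl and 3226, 3747 and 3563 CPM in HS+REC (log2 fold change 1.35, SE 0.07, FDR = 1.3e-13), and HSPE1 had a log2 fold change of 1.13 (SE 0.13). Of the cytosolic chaperonin, TCP1 rose by 1.21 on the log2 scale and CCT4 by 0.70, while CCT7 had 0.07 with an FDR of 0.361. In a wider list of 15 mitochondrial chaperones and proteases, HSPD1 and HSPE1 were the 2 raised 2-fold, and 5 were raised and 2 lowered at the FDR.

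**Figure D2:**
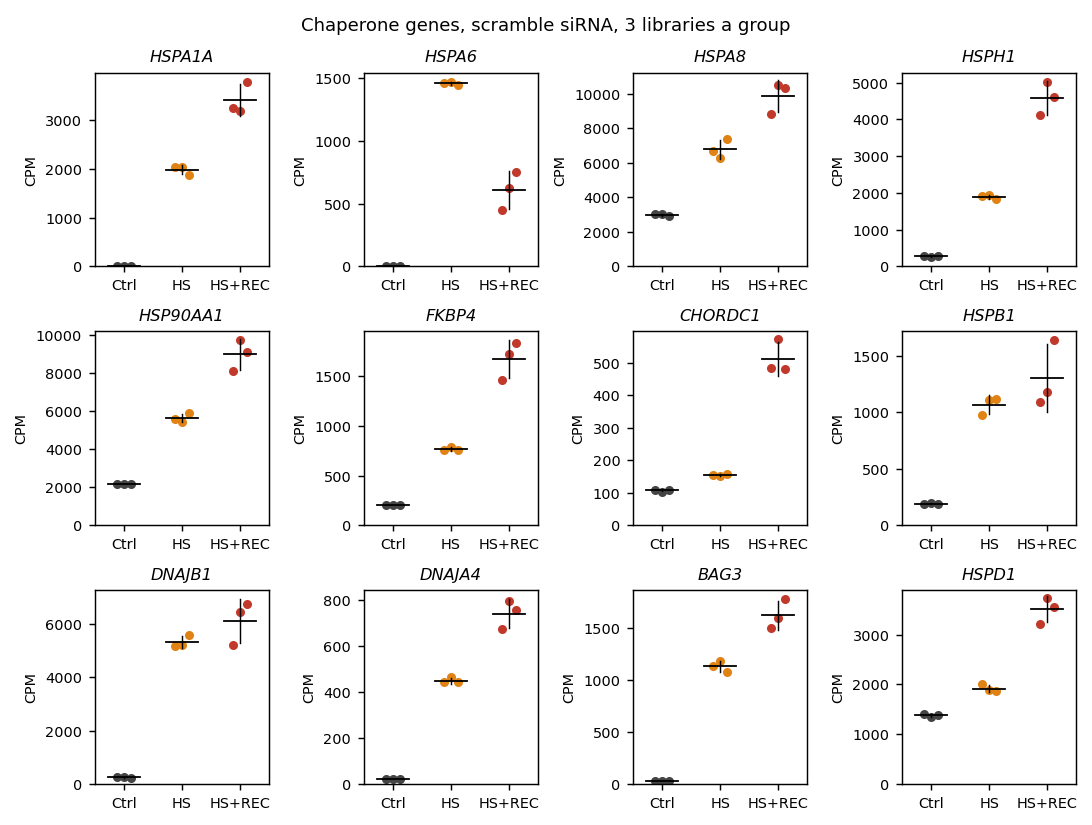
CPM in each of the 3 libraries of Ctrl, HS and HS+REC in scramble siRNA, 1 panel a gene, with its own y axis from 0. Horizontal bars are means and vertical bars are SD (n = 3). In all 12 genes every HS+REC library stands above every Ctrl library. HSPA6 is highest in HS, whereas CHORDC1, at 107 CPM in Ctrl and 154 CPM in HS, stands at 512 CPM in HS+REC.

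The heat shock factors themselves did not share this rise. HSF1 was at 83.9, 88.9 and 90.5 CPM in Ctrl and 94.7, 86.1 and 106 CPM in HS+REC (log2 fold change 0.12, FDR = 0.185), with overlapping groups. HSF2 was at 36.5, 37.8 and 37.2 CPM in Ctrl and 25.2, 30.1 and 27.03 CPM in HS+REC and fell by 0.44 on the log2 scale (FDR = 1.1e-05). HSBP1, which binds the HSF1 trimer, had a log2 fold change of 0.18 (FDR = 0.0494). Of the 5 tested genes of this list 0 passed 2-fold in edgeR or DESeq2. In the edgeR fit 1 was raised and 1 lowered at the FDR and at an unadjusted p under 0.05. By DESeq2 0 were raised and 1 lowered at the FDR.

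Ubiquitin marks proteins for the proteasome, the protease that degrades them. Of 17 tested genes for ubiquitin and the clearance of aggregates, 3 were raised 2-fold, 6 were raised and 1 lowered at the FDR, and the median log2 fold change was 0.08. ZFAND2A, a stress-induced partner of the proteasome, was at 20.9, 21.95 and 20.5 CPM in Ctrl and 222, 271 and 281 CPM in HS+REC (log2 fold change 3.61, SE 0.11, FDR = 1.3e-17). UBB, a polyubiquitin gene, rose by 1.26 on the log2 scale. RPS27A, which encodes ubiquitin fused to a ribosomal protein, had a log2 fold change of 0.11 with an FDR of 0.0880. None of 32 tested proteasome subunits changed 2-fold in edgeR or DESeq2, and 5 of them rose at the FDR in the edgeR fit (7 at an unadjusted p under 0.05), with PSMD12 the highest at 0.28.

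Immediate early genes, which are switched on within minutes of a stimulus without new protein, were still raised but were mostly past their peak. Of 13 tested AP-1 and ATF genes, 4 were raised 2-fold and 8 at the FDR, with 1 lowered. Of 26 other immediate early genes, 10 were raised 2-fold (7 with more than 1 CPM required in all 6 libraries), 18 were raised and 3 lowered at the FDR, and the median log2 fold change was 0.78. FOS, an AP-1 subunit, was at 4.21, 3.83 and 4.04 CPM in Ctrl, at 263, 279 and 259 CPM in HS and at 17.6, 19.97 and 21.4 CPM in HS+REC. Its log2 fold change in HS+REC against Ctrl was 2.29 (SE 0.14, FDR = 6.2e-12), beside 6.05 in HS against Ctrl and -3.76 in HS+REC against HS. EGR2, a zinc finger factor, was at 1.56, 0.942 and 1.52 CPM in Ctrl, 40.4, 44.4 and 39.6 CPM in HS and 6.11, 7.17 and 7.06 CPM in HS+REC (log2 fold change of HS+REC against Ctrl 2.35, SE 0.20, FDR = 2.9e-09). Its relative EGR3 was at 8.08, 7.83 and 7.44 CPM in Ctrl, 116, 127 and 98.8 CPM in HS and 27.5, 30.03 and 28.9 CPM in HS+REC (log2 fold change 1.89, SE 0.13, FDR = 4.9e-11). DUSP1, a phosphatase that switches off stress kinases, had 7.19, 6.30 and 6.23 CPM in Ctrl, 63.8, 75.7 and 75.1 CPM in HS and 20.8, 24.4 and 30.4 CPM in HS+REC. In all of these genes the HS+REC libraries lay between the Ctrl and the HS libraries, with no overlap. EGR1, named after its values were seen, had the same order, with means of 47.99, 1418 and 138 CPM.

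Other members had returned to Ctrl or below it. JUNB, also named after its values were seen, was at 20.5 ± 1.70 CPM in Ctrl, 47.5 ± 1.53 CPM in HS and 17.6 ± 1.65 CPM in HS+REC (SD, n = 3), with a log2 fold change of -0.22 against Ctrl (FDR = 0.0607). ZFP36, which binds AU-rich mRNAs and speeds their decay, went from 11.2 to 36.1 and then to 9.06 CPM and was lowered against Ctrl by 0.30 on the log2 scale (FDR = 0.00495). DUSP6, a phosphatase of ERK, went from 95.7 to 180.1 and 70.7 CPM (log2 fold change -0.44, FDR = 1.9e-06). Of the 26 genes, 19 were raised 2-fold in HS against Ctrl, and 7 were lowered 2-fold in HS+REC against HS, with 19 lowered at the FDR. The 3 comparisons share libraries, so their counts are set side by side only. Over all genes tested 2.72% were raised 2-fold in HS against Ctrl (3.08% changed 2-fold either way, and 20.1% were raised at the FDR), and 0.754% were lowered 2-fold in HS+REC against HS, with 13.6% lowered at the FDR. ATF3, a stress-induced AP-1 partner, and NR4A3, a nuclear receptor, were instead highest in HS+REC. The means in Ctrl, HS and HS+REC were 5.59, 21.7 and 29.9 CPM for ATF3 and 0.128, 0.770 and 1.30 CPM for NR4A3. NR4A3 passed the filter only through its HS+REC libraries, so it was bound to be higher there than in Ctrl.

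Genes of the integrated stress response were raised at both times, and more of them reached 2-fold after recovery. In this response kinases such as PERK and GCN2 slow translation while the transcription factor ATF4 is made. Of 18 tested genes, 10 were raised 2-fold in HS+REC and 11 at the FDR, with 1 lowered and a median log2 fold change of 1.02. In HS against Ctrl 5 of the 18 were raised 2-fold, 10 were raised and 4 lowered at the FDR (20.1% and 15.6% of all genes tested), and the median was 0.17, and in HS+REC against HS 3 were raised 2-fold and 13 at the FDR, against 0.898% and 13.7% of all genes tested. CHAC1, which degrades glutathione, was at 6.66, 6.26 and 5.89 CPM in Ctrl, 65.8, 58.3 and 55.8 CPM in HS and 121, 140.4 and 152 CPM in HS+REC (log2 fold change of HS+REC against Ctrl 4.46, SE 0.14, FDR = 6.6e-17). SESN2, an inhibitor of mTORC1 signalling, was at 11.3, 10.5 and 11.4 CPM in Ctrl, 49.1, 46.4 and 37.6 CPM in HS and 125, 116 and 132 CPM in HS+REC (log2 fold change 3.50, SE 0.11, FDR = 5.6e-17). DDIT4, another mTORC1 inhibitor, was at 20.95, 18.4 and 16.7 CPM in Ctrl, 306, 287 and 266 CPM in HS and 198, 246 and 271 CPM in HS+REC (log2 fold change 3.68, SE 0.17, FDR = 3.9e-14). CHAC1 and SESN2 were thus higher in every HS+REC library than in every HS library, while DDIT4 was not. CEBPB and DDIT3 (CHOP), bZIP factors of the response, rose by 1.79 and 1.65 on the log2 scale against Ctrl. Several genes for amino acid supply did not pass the FDR, among them ASNS (-0.11, FDR = 0.486), PSAT1 (0.13, FDR = 0.155) and SLC7A11 (-0.04, FDR = 0.831). ATF4 mRNA itself had a log2 fold change of 0.05 (FDR = 0.476), and ATF5 fell by 0.94 on the log2 scale (FDR = 7.4e-09).

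The unfolded protein response of the ER includes XBP1 and HERPUD1. Of 20 tested genes, 4 were raised 2-fold, 6 were raised and 3 lowered at the FDR, close to the 22.6% and 19.7% of all genes tested, and the median log2 fold change was 0.09. In HS against Ctrl 0 of the 20 were raised 2-fold in the edgeR fit, with 2 raised at an unadjusted p under 0.05 and 2 raised and 5 lowered at the FDR (2 and 6 by DESeq2), where 20.1% and 15.6% of all genes tested were. In HS+REC against HS 3 were raised 2-fold, against 0.898% of all genes tested. HERPUD1, which serves the export of unfolded proteins from the ER, was at 66.3, 70.8 and 67.3 CPM in Ctrl, 85.6, 82.6 and 86.7 CPM in HS and 203, 228 and 238 CPM in HS+REC (log2 fold change 1.71, SE 0.08, FDR = 4.3e-14). XBP1, a transcription factor of this response, was at 133, 132 and 123 CPM in Ctrl, 133, 129 and 141 CPM in HS and 241, 285 and 281 CPM in HS+REC (log2 fold change 1.06, SE 0.07, FDR = 4.1e-11). For these genes and for DNAJB9, an ER partner of HSPA5 that rose from 6.42 to 21.1 CPM, most of the change lay between HS and HS+REC. ERN1 (IRE1), the sensor that splices XBP1, rose by 1.61 on the log2 scale. The ER chaperones HSPA5, HSP90B1, CALR and PDIA4 had log2 fold changes between -0.13 and 0.14. HSPA5 is in this list as well as among the HSP70 genes.

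Metallothioneins, small proteins that bind zinc and copper, were also raised. Of 9 tested genes of this list, 4 were raised 2-fold and 8 at the FDR, with a median log2 fold change of 0.63. In HS against Ctrl 2 of the 9, MT1H and the regulator MTF1, were raised 2-fold, 4 were raised and 1 lowered at the FDR, and the median was -0.02. In HS+REC against HS 3 were raised 2-fold, 6 were raised and 1 lowered at the FDR, and the median was 0.85. Over all genes tested, HS against Ctrl had 2.72% raised 2-fold, with 20.1% raised and 15.6% lowered at the FDR. HS+REC against HS had 0.898% raised 2-fold, with 13.7% raised and 13.6% lowered at the FDR. MT2A was at 119, 113 and 108 CPM in Ctrl, 143, 139.8 and 151 CPM in HS and 271, 250.2 and 263 CPM in HS+REC (log2 fold change 1.21, SE 0.07, FDR = 8.4e-12). MT1E was at 19.8, 18.9 and 17.5 CPM in Ctrl, 17.7, 17.1 and 20.6 CPM in HS and 41.4, 40.9 and 39.2 CPM in HS+REC (log2 fold change 1.11, SE 0.10, FDR = 3.0e-09). MT1F had a log2 fold change of 1.01 and lay so close to 2-fold that several other settings did not call it. MTF1, the metal-responsive factor that switches these genes on, was highest in HS, at 30.4, 62.7 and 43.4 CPM in Ctrl, HS and HS+REC. The genes of this family are similar in sequence, so reads may be shared between members.

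**Figure D3:**
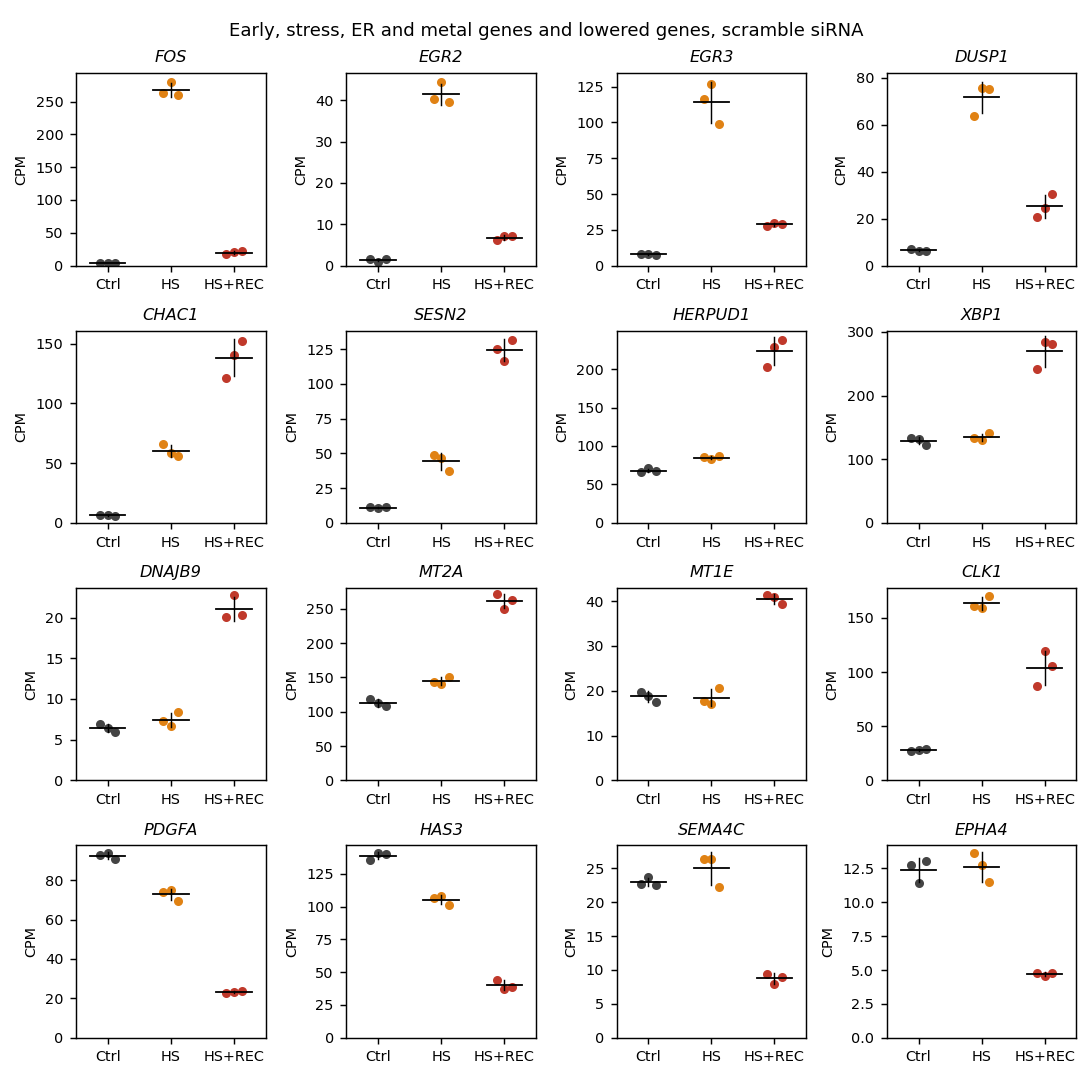
CPM in each of the 3 libraries of Ctrl, HS and HS+REC in scramble siRNA, 1 panel a gene, with its own y axis from 0. Horizontal bars are means and vertical bars are SD (n = 3). FOS, EGR2, EGR3 and DUSP1 peak in HS, CHAC1 and SESN2 climb from Ctrl over HS to HS+REC, HERPUD1, XBP1, DNAJB9, MT2A and MT1E rise mainly after the heat, and SEMA4C and EPHA4 are lowest in HS+REC.

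Several of the largest rises lay outside these lists. PGF, a growth factor for blood vessels, was at 0.914, 0.795 and 0.594 CPM in Ctrl and 21.7, 22.1 and 23.4 CPM in HS+REC (log2 fold change 4.86, SE 0.13, FDR = 3.5e-18), so it passed the filter only through its HS+REC libraries. CLU, a secreted chaperone, was at 10.3, 9.79 and 11.6 CPM in Ctrl and 179, 181 and 199 CPM in HS+REC (log2 fold change 4.14, SE 0.12, FDR = 1.3e-17). DEDD2, a death effector domain protein, was at 20.2, 22.03 and 20.3 CPM in Ctrl and 365, 407 and 468 CPM in HS+REC (log2 fold change 4.31, SE 0.11, FDR = 7.6e-19). FOXJ1, a transcription factor known for motile cilia, and RAB39A, a small GTPase, likewise passed it only through HS+REC, being below 1 CPM in every Ctrl library and at means of 14.7 and 8.78 CPM in HS+REC. CCL26, a chemokine, had 0, 1 and 1 counts in Ctrl and 5.09, 6.63 and 7.54 CPM in HS+REC. TDRG1, a noncoding RNA gene named for testis, had 0 counts in each Ctrl library and 4.77, 6.31 and 7.19 CPM in HS+REC. CLU and DEDD2 were higher in every HS+REC library than in any Ctrl library. For the other genes of this paragraph the filter fixed this beforehand, since no Ctrl library was above 1 CPM.

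Other signalling and stress programmes had from 0 to 3 members raised 2-fold, to be read against 3.53% raised 2-fold, 22.6% raised at the FDR and 19.7% lowered at the FDR over all genes tested. Among 18 tested NF-kB targets, 3 were raised 2-fold and 7 at the FDR, with 2 lowered. The chemokine CCL20 was at 3.27, 3.39 and 3.64 CPM in Ctrl and 17.9, 23.2 and 25.4 CPM in HS+REC (log2 fold change 2.69, SE 0.15, FDR = 2.6e-12), and CXCL8 and IL32 rose by 1.21 and 1.69 on the log2 scale. NFKBIA, the inhibitor that NF-kB itself induces, had -0.16 with an FDR of 0.104. Among 16 tested p53 targets, 2 were raised 2-fold, CDKN1A (p21) by 1.88 and PMAIP1 (NOXA) by 1.41 on the log2 scale, while MDM2 fell by 0.64. At the FDR 5 of them were raised and 3 lowered. Of 15 tested NRF2 targets, HMOX1, which breaks down heme, was the 1 raised 2-fold (1.77, FDR = 6.9e-10), whereas NQO1 had -0.02 and GCLM -0.13, with FDRs of 0.837 and 0.214. Of 15 tested BCL2 family genes 1 (PMAIP1, also a p53 target), of 12 KLF factors 1 (KLF6), of 13 TGF-beta and BMP feedback genes 2 (SMAD7 and ID3) and of 16 clock genes 1 (DBP) were raised 2-fold. At the FDR 5 were raised and 1 lowered in the BCL2 list, 5 and 2 in the KLF list, 5 and 1 in the TGF-beta list, 8 and 4 in the clock list and 4 and 2 in the NRF2 list. None of 16 tested WNT targets changed 2-fold in edgeR or DESeq2, with 3 raised and 5 lowered at the FDR in the edgeR fit (4 and 5 at an unadjusted p under 0.05), and the largest change was a fall of MYB by 0.94 on the log2 scale.

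The CLK kinases of the splicing machinery rose. CLK kinases phosphorylate SR proteins, the splicing factors that recognise exons. CLK1 was at 27.3, 28.1 and 28.97 CPM in Ctrl, 161, 159 and 170.3 CPM in HS and 87.4, 119 and 106 CPM in HS+REC (log2 fold change against Ctrl 1.89, SE 0.11, FDR = 7.0e-12). CLK4, CLK3 and CLK2 rose by 1.92, 1.61 and 0.59 on the log2 scale. CLK1, CLK3 and CLK4 were the 3 genes raised 2-fold of 19 tested in this list, and 7 were raised and 5 lowered at the FDR, beside 22.6% and 19.7% of all genes tested. The lowered ones were SRSF2, SRSF6, SRSF5, SRSF7 and the kinase SRPK1, with falls of 0.17 to 0.42 on the log2 scale, and SRSF11, TRA2A and TRA2B rose by 0.60, 0.43 and 0.72. Of 10 tested genes for paraspeckles and nuclear RNAs 3 rose at the FDR and at an unadjusted p under 0.05, and 0 reached 2-fold in edgeR or DESeq2, with 0.81 for the long noncoding RNA NEAT1 and 0.81 for MALAT1.

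The largest fall was that of PDGFA, and no fall reached 4-fold in the edgeR fit. PDGFA, a growth factor (chr7:497258-520296), was at 92.8, 93.96 and 90.9 CPM in Ctrl, 73.9, 75.02 and 69.5 CPM in HS and 22.9, 23.03 and 23.7 CPM in HS+REC (log2 fold change against Ctrl -1.99, SE 0.06, FDR = 8.4e-18). HAS3, a hyaluronan synthase (chr16:69105653-69118719), was at 136, 141 and 139.9 CPM in Ctrl, 107, 108 and 101 CPM in HS and 44.3, 36.95 and 38.98 CPM in HS+REC (log2 fold change -1.79, SE 0.07, FDR = 4.8e-15). PLAU, the urokinase protease, was at 17.7, 18.1 and 17.02 CPM in Ctrl and 5.86, 6.90 and 5.38 CPM in HS+REC (log2 fold change -1.54, SE 0.09, FDR = 1.9e-12). In all 3 genes the HS libraries lay between those of Ctrl and HS+REC. SEMA4C and EPHA4, both known from axon guidance, were not lowered at the end of the heat, with log2 fold changes of 0.12 and 0.03 in HS against Ctrl (FDR = 0.325 and 0.829). SEMA4C was at 22.7, 23.7 and 22.6 CPM in Ctrl, 26.4, 26.3 and 22.2 CPM in HS and 9.47, 7.88 and 8.92 CPM in HS+REC (log2 fold change -1.39, SE 0.10, FDR = 1.2e-10). EPHA4 was at 12.7, 11.4 and 13.05 CPM in Ctrl, 13.7, 12.8 and 11.5 CPM in HS and 4.81, 4.53 and 4.80 CPM in HS+REC (log2 fold change -1.39, SE 0.11, FDR = 3.1e-10). RGMA, a membrane-anchored guidance cue, and TNS4, a tensin of cell adhesions, fell by 1.44 and 1.52 on the log2 scale. The other genes among the 15 largest falls were ZNF792, TAGLN, ZNF443, LOC100190940, LFNG, OAS2, FASLG and FAM109B, with falls of 1.24 to 1.81 on the log2 scale. LFNG, which adds sugars to Notch receptors, was the 1 gene lowered 2-fold among 12 tested Notch and HES genes, of which 4 were raised and 2 lowered at the FDR.

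Most of the listed actin genes were lowered. Of 16 tested genes for actin and its regulation by SRF, 11 were lowered and 1 was raised at the FDR, against 19.7% and 22.6% of all genes tested, and the median log2 fold change was -0.25. TAGLN (transgelin), an actin-binding protein, was the 1 lowered 2-fold, at 18.2, 19.1 and 15.9 CPM in Ctrl and 5.42, 5.31 and 5.64 CPM in HS+REC (log2 fold change -1.70, SE 0.11, FDR = 1.2e-11). MYL9, ZYX, VCL and SRF itself fell by 0.83, 0.80, 0.72 and 0.53 on the log2 scale. The largest losses in CPM were in ACTB, ACTG1, TUBB, TUBA1B and TUBB4B, the major actins and tubulins, at falls of 0.24 to 0.86 on the log2 scale. TUBB was at 1989, 1959.8 and 1960.0 CPM in Ctrl and 1141, 1022 and 1088 CPM in HS+REC (SE of the log2 fold change 0.05, FDR = 1.2e-11). The actins resemble each other closely and so do the tubulins, so some of their reads may be shared. The largest gains in CPM were in HSPA1B, DNAJB1, HSPA8, HSP90AA1 and HSPH1.

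Some cell division genes were lowered, all by less than 2-fold, beside 19.7% of all genes tested lowered at the FDR. Of 26 tested genes of G2/M and mitosis, 12 were lowered and 0 raised at the FDR in the edgeR fit (14 and 0 at an unadjusted p under 0.05, and 13 and 0 at the FDR by DESeq2), none of them 2-fold, with a median log2 fold change of -0.17. CCNF (cyclin F), KIF11, KIF23 and PLK1, regulators and motors of mitosis, fell by 0.84, 0.79, 0.72 and 0.66 on the log2 scale. Of 24 tested genes of G1/S and replication, 8 were lowered and 3 raised at the FDR, with CCNE2 (cyclin E2) lowest at -0.84 (FDR = 1.2e-05). Of 16 genes for polyamines and nucleoli 6 were lowered and 3 raised, and AMD1, an enzyme of polyamine synthesis, fell by 0.81 on the log2 scale. Of 11 tested DUSP phosphatases 5 were lowered at the FDR, and DUSP1, described above, was the 1 raised.

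No member of the housekeeping lists changed 2-fold, which few genes did at large (3.53% raised and 0.649% lowered), and glycolysis was near the 22.6% of all genes raised at the FDR. Of 74 tested cytosolic ribosomal protein genes 0 passed the FDR in edgeR or DESeq2, 6 were raised at an unadjusted p under 0.05 in the edgeR fit, and their median log2 fold change was 0.05. Of 22 glycolysis genes 6 were raised and 2 lowered at the FDR, none 2-fold. ALDOC, an aldolase, rose by 0.79 on the log2 scale, and SLC2A1, the main glucose transporter, fell by 0.72. Of 24 genes of cholesterol synthesis and its control 9 were raised and 2 lowered at the FDR, none 2-fold. Of the 12 tested epithelial markers 2 were raised and 3 lowered at the FDR, none 2-fold.

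**Figure D4:**
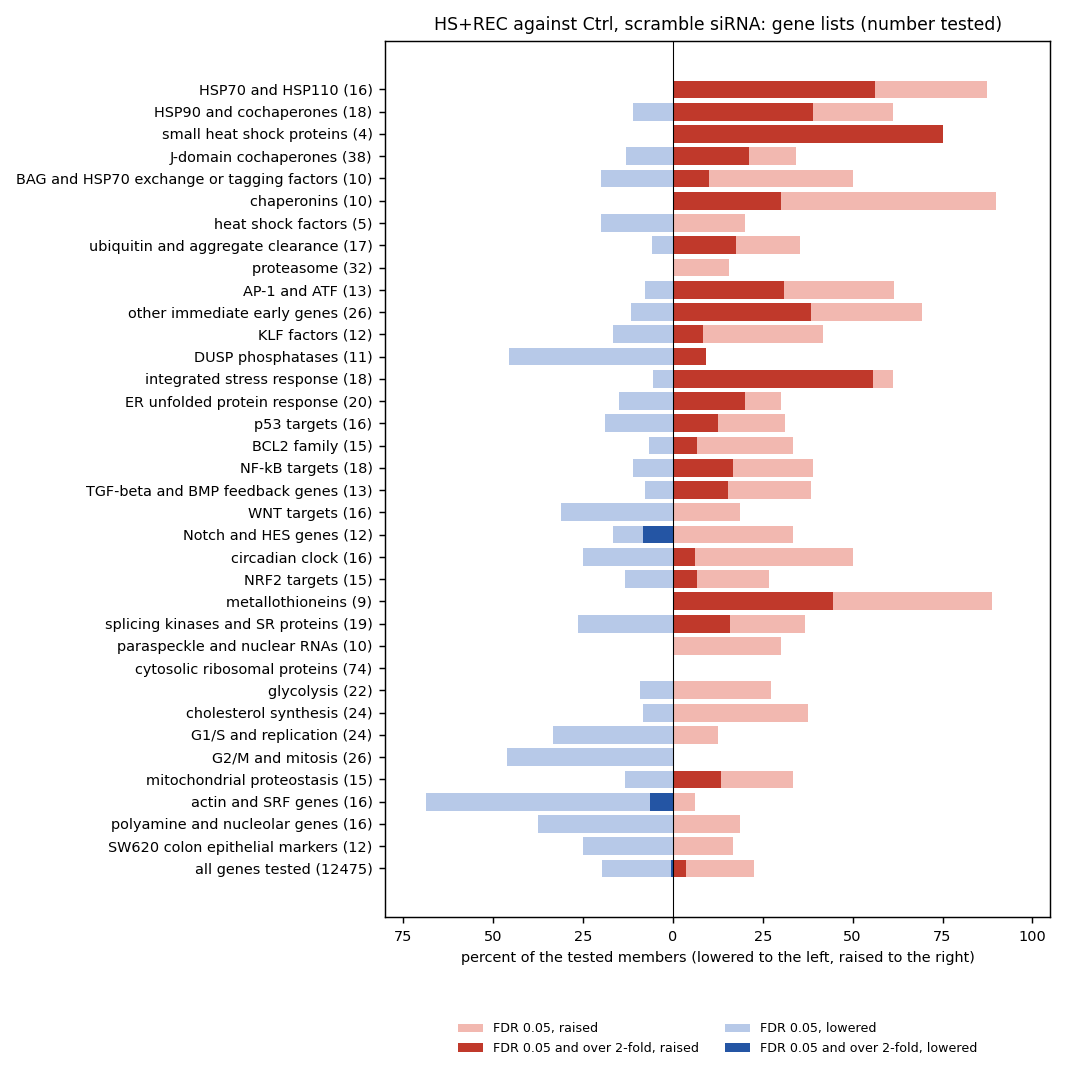
For each gene list (number of tested members in brackets), the percent of tested members raised (right) or lowered (left) in HS+REC against Ctrl in scramble, at the FDR alone (pale) and at the FDR with a 2-fold change (dark). The bottom bar gives all 12475 genes tested. The HSP70 list reaches 9 of 16 members raised 2-fold and the integrated stress response 10 of 18, while the actin and SRF list reaches 11 of 16 lowered at the FDR and the ribosomal list has an empty bar.

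The called genes spanned less of the genome than genes at large. The gene span, from the first to the last annotated base on hg38 (GENCODE), had a median of 21.5 kb for raised genes, 13.1 kb for lowered genes and 32.9 kb for all genes tested, with a span known for 90.7%, 92.6% and 92.8% of them. Long noncoding RNA genes made up 3.18% of raised, 8.64% of lowered and 2.91% of all genes tested. Of 397 tested genes with ZNF symbols, most of them zinc finger factors, 9 were raised and 6 lowered 2-fold, and 121 were raised (30.5%) and 75 lowered (18.9%) at the FDR, beside 22.6% and 19.7% of all genes tested. These are descriptions with no test. CPM values are not corrected for length, and lowered genes also had a lower median level, 7.37 CPM against 30.4 CPM for all genes tested and 8.68 CPM for raised genes.

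The same comparison in siLonp1 cells shares no library with that in scramble cells. There 517 genes were raised (4.14%) and 139 lowered (1.11%) on the same rule, 5.26% either way, and at the FDR alone 25.1% were raised and 26.1% lowered. Of the 440 genes raised in scramble, 395 (89.8%) were raised 2-fold in siLonp1 and 437 were raised at the FDR, with 3 not past the FDR and 0 lowered. Their median log2 fold change was 1.48 in scramble and 1.60 in siLonp1. Of the 81 genes lowered in scramble, 62 (76.5%) were lowered 2-fold in siLonp1 and all 81 were lowered at the FDR, with medians of -1.16 and -1.20. The difference of the HS+REC effect between the arms was tested as an interaction, with 207 of the genes tested past the FDR (1.66%), 89 above 0 (0.713%) and 118 below (0.946%). Among the 440 raised genes 39 passed, with the rise larger in siLonp1 for 28 and smaller for 11. Among the 81 lowered genes 6 passed.

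Several chaperone and stress genes were among those with a larger rise in siLonp1. HSPH1 rose from 253 to 6357 CPM in siLonp1, a log2 fold change of 4.65 against 4.05 in scramble (difference 0.60, SE 0.11, FDR = 0.00697). SESN2 rose from 5.45 to 114 CPM in siLonp1, by 4.38 against 3.50 on the log2 scale (difference 0.89, SE 0.16, FDR = 0.00504). HERPUD1 rose from 39.5 to 217 CPM, by 2.46 against 1.71 (difference 0.75, SE 0.11, FDR = 0.00213). The siLonp1 Ctrl level of SESN2 and HERPUD1 was lower than in scramble, at 5.45 against 11.04 CPM and 39.5 against 68.1 CPM. HSPA1A, HSPA6, DNAJB1 and BAG3 had no difference past the FDR, with interaction log2 values of -0.41 (SE 0.14), 0.37 (SE 0.38), -0.17 (SE 0.15) and 0.28 (SE 0.13). EGR3 rose less in siLonp1, by 0.83 against 1.89 (FDR = 0.00305 for the difference). These differences of HSPH1, SESN2, HERPUD1 and EGR3 were called under every setting run. The count over all genes changed with the library left out, from 89 above 0 and 118 below. It went to 42 and 56, 48 and 56, and 53 and 58 without Ctrl scramble replicate 1, 2 or 3. Without Ctrl siLonp1 replicate 1, 2 or 3 it was 46 and 58, 48 and 58, and 58 and 78. Without HS+REC scramble replicate 1, 2 or 3 it was 55 and 51, 93 and 154, and 132 and 163. Without HS+REC siLonp1 replicate 1, 2 or 3 it was 80 and 104, 61 and 93, and 117 and 165. The cause of these changes was not tested.

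**Figure D5:**
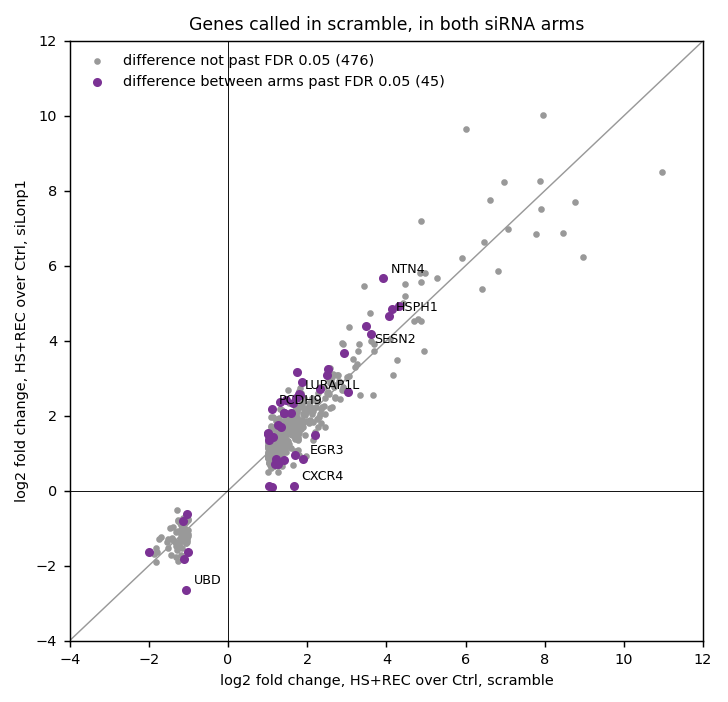
Each point is 1 of the 521 genes called in scramble, with its log2 fold change, HS+REC over Ctrl, in scramble on the x axis and in siLonp1 on the y axis. The diagonal marks equal values. Most points follow the diagonal, and 45 genes (purple) had a difference between the arms past an FDR of 0.05.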

How the data were processed

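Polyadenylated RNA of SW620 cells was sequenced with a stranded mRNA kit as paired reads. Per the labels and the study's methods, reads were aligned to hg38 with STAR (2.7.3a) and assigned to genes with featureCounts, and the authors deposited 1 table of raw counts per gene for all 18 libraries. The strand setting of the counting and any removal of PCR duplicates are not given in the sources used here.

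Counts were fitted for all 18 libraries at once with edgeR (4.0.16 in R 4.3.3; limma 3.58.1, DESeq2 1.42.0 as the alternative), with TMM scaling, a mean for each of the 6 groups and 12 residual degrees of freedom. The filter was more than 1 CPM in at least 3 of the 6 libraries compared. A gene was called by the quasi-likelihood test when its fold change exceeded 2 and its FDR (Benjamini-Hochberg) did not exceed 0.05, and differences between the arms at the FDR alone. In simulated counts for this comparison over 12475 genes, 194 of 200 changed genes (97%) passed the FDR in the right direction. There were 15 false calls among the unchanged genes. No fold limit was applied there, and the changed genes were drawn only from genes above a minimum Ctrl level. CPM of single genes are counts per 1000000 counts of the TMM-scaled library total, and the filter and marker sums use plain totals. Replicates of Ctrl differed by 3.51 to 6.04 times the sampling variance (chi-square per degree of freedom) and those of HS+REC by 14.7 to 22.4 times, so no library was a copy of another. The sample labels do not say whether replicates were separate cultures. If they were not, the p-values measure technical spread only.

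Genes were named by rule: LONP1, HSF1, HSF2 and RPS18; the 15 largest rises and 15 largest falls among called genes without overlap, with a mean of at least 5 CPM in the higher group and more than 3 counts in every library of the lower; the 3 with at most 3 counts in every library of the lower group and the highest mean CPM in the other; the 5 largest gains and losses in CPM; up to 4 called members of each list; and the 10 largest differences between the arms. Other list members are named to describe a list and were chosen after their values were seen. The comparison, the members and the lists were chosen with earlier results of these data known. Gene positions are those of GENCODE on hg38, promoter windows those of RefSeq. GC content was not analysed here, and some genes that meet the naming rule are not reported here.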

Additional observations from a re-analysis of the deposited data

Results flagged for a closer look

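In 20 genes named by rule or described above, the HS+REC effect differed between siLonp1 and scramble cells in edgeR's test of the interaction at an FDR of 0.05. The values are the log2 fold change of HS+REC against Ctrl in siLonp1 minus that in scramble. The difference was called in all 22 settings that tested it for CXCR4, a chemokine receptor (-1.53), and UBD, a ubiquitin-like modifier (-1.60). It was called in all 23 settings for EGR3 (-1.05), HERPUD1 (0.75), HSPH1 (0.60) and SESN2 (0.89). So it was for HOXC13-AS, an antisense RNA gene (1.02), LURAP1L (1.40) and PCDH9, a protocadherin (1.08). On the log2 scale CXCR4 changed by 1.65 in scramble and 0.13 in siLonp1, and UBD by -1.05 and -2.65. The difference of TMEM159 (0.95) was called in 22 of 23 settings, and those of DEDD2 (0.62), PDGFA (0.36) and SGK1, a kinase (-1.01), in 19 of 23. It was called in 17 of 23 settings for CLU (0.71), in 16 of 22 for NR3C1, the glucocorticoid receptor (1.06), and in 13 of 23 for ZFAND2A (0.58). It was called in 12 of 23 settings for LONP1 itself (0.43), in 11 of 22 for NTN4, a netrin (1.76), in 10 of 23 for DNAJA1 (0.40) and in 9 of 23 for HSPD1 (0.35). LONP1 was at 20.4 CPM in Ctrl and 27.3 CPM in HS+REC in the siLonp1 arm, against 219 and 218 CPM in scramble. Groups of 3 libraries are too small to test a single library as an outlier.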

How the results depend on the processing

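Across the settings run, HS+REC against Ctrl in scramble gave between 321 and 485 raised genes and between 67 and 103 lowered ones, apart from scaling by library size only (122 lowered), no filter on low counts (872 raised, 141 lowered) and no fold change limit (2825 and 2460). Leaving out 1 library gave 426 to 446 raised and 70 to 103 lowered genes. The chaperone lists had 31 to 32 raised and 0 to 0 lowered members with 1 library left out, 27 raised with more than 1 CPM in all 6 libraries, and 55 and 9 without the fold limit. In siLonp1, leaving out 1 library gave 503 to 538 raised and 126 to 184 lowered genes, no filter 1081 and 220, and no fold limit 3132 and 3260. The difference between the arms was the least stable result: leaving out 1 library gave 42 to 132 genes above 0 and 51 to 165 below, no filter gave 145 and 240, DESeq2 155 above, and an FDR of 0.01 gave 26 and 31. HS against Ctrl gave 330 to 353 and 42 to 50 with 1 library left out, 553 and 122 with no filter, and 2510 and 1941 with no fold limit. HS+REC against HS gave 104 to 120 and 83 to 107 with 1 library left out, 299 raised with no filter, 74 raised with more than 1 CPM in all 6 libraries, and 1709 and 1698 with no fold limit. A filter or fold limit changes by construction which genes can be called. For the other changes the cause was not tested. Same-numbered replicates did not deviate together (r = 0.04, -0.16 and -0.21), and a replicate block gave 440 raised and 81 lowered genes, of which 439 and 81 were shared with the fit without it, 518 and 138 in siLonp1, and 73 and 96 for the difference between the arms. Of 101 named genes, 94 kept their direction and their side of the threshold in the settings that tested them, and only 82 could be tested with more than 1 CPM in all 6 libraries. MAFF, MT1F, SGK1, UBD and XBP1 fell short of 2-fold in some settings. LONP1 and RPS18 changed sign near 0 with 1 library left out: their log2 fold changes lay between -0.064 and 0.069 and between -0.20 and 0.024, and were above 0 for LONP1 without Ctrl replicate 1 or 2 or HS+REC replicate 2 and for RPS18 without Ctrl replicate 2 or HS+REC replicate 1. Scaling by library size only moved the median log2 fold change of all genes to -0.09. Genes with at most 3 counts in Ctrl have no reliable fold change at this depth.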
